A study of Mesocricetus auratus with 6 samples.

Results

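The suprachiasmatic nucleus (SCN) was compared with the cerebral cortex of Syrian hamsters at circadian time (CT) 15, the early subjective night, in 4 of the 6 RNA-seq libraries of the series. Each brain library was made from the pooled RNA of 4 hamsters, and there was 1 library for each genotype and tissue: wild-type SCN, *duper* SCN, wild-type cortex and *duper* cortex. All hamsters were raised in a 14:10 light-dark cycle. The 4 *duper* hamsters, which carry a frameshift in exon 4 of the clock gene *Cry1*, were female, and the 4 wild-type hamsters (LVG) were 2 females and 2 males, so that genotype and sex cannot be told apart. The same sexes stand on both sides of the tissue comparison, which was made within genotype: the 2 libraries of a tissue, 1 from each genotype, served as its replicates, and genotype was a block in the fit. P-values therefore rest on how far the difference between tissues varied from 1 genotype to the other, with a spread shared across genes. They do not measure the spread between hamsters. Total estimated counts were 6788827 in wild-type cortex, 10391793 in *duper* cortex, 7248733 in *duper* SCN and 29936106 in wild-type SCN. The libraries of 1 tissue were more alike than those of 1 genotype, since the log2 values correlated at 0.979 between both SCN libraries, at 0.975 between both cortex libraries and at 0.916 to 0.926 between tissues.

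The SCN is a small paired nucleus of the anterior hypothalamus, above the optic chiasm, that sets the phase of daily rhythms in the rest of the body. Its neurons are nearly all GABAergic, are told apart by the peptides they release, and are kept in step by peptide receptors. The neocortex derives from another part of the forebrain, and most of its neurons are glutamatergic projection cells. Levels are given in TPM, a unit in which all transcripts of a library sum to the same total, and are scaled by transcript length. A fold change is that of SCN over cortex, fitted by edgeR on the estimated counts of the 4 libraries, and is given on the log2 scale ± its standard error (n = 2 libraries per tissue). The calling threshold was an adjusted p of 0.05 together with a log2 fold change beyond 1 in either direction, and a called gene was kept when wild type and *duper* agreed in direction.

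Of 31593 genes listed, 16903 had enough counts to be tested. Of these, 892 were called higher in SCN (5.28% of the genes tested) and 1152 were called higher in cortex (6.82%), together 12.1%. All but 1 of the 2044 called genes had the same direction in both genotypes, which left 892 SCN genes and 1151 cortex genes. The exception was *Adora2a*, an adenosine receptor of striatal neurons. A call already favours such agreement, since disagreement between the genotypes enters the spread that the test uses. The median kept gene differed 3.02-fold on the SCN side and 3.18-fold on the cortex side. More than 8-fold differences were found for 96 kept SCN genes and 166 kept cortex genes. Across all genes tested, 75.6% had the same sign in both genotypes, and the wild-type and *duper* ratios correlated at r = 0.77, given as a description across genes of 4 separate libraries. In TPM, 65.0% of the genes tested had both libraries of 1 tissue above both of the other. Below 1 TPM in both liver libraries were 51.5% of the kept SCN genes and 56.7% of the kept cortex genes, against 26.1% of all genes tested. Long non-coding genes were kept on the SCN side in 68 of 1918 cases (3.55%) and on the cortex side in 142 cases (7.40%), and protein-coding genes in 823 (5.50%) and 1009 (6.75%) of 14956. DESeq2 called 564 genes higher in SCN and the fit of all 6 libraries 516, and leaving out 1 brain library from the latter gave 76 to 538. In the fits of 3 brain libraries, with tissue as the only term, the SCN count was 686 to 965 and the cortex count 1022 to 1213.

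**Figure D1:**
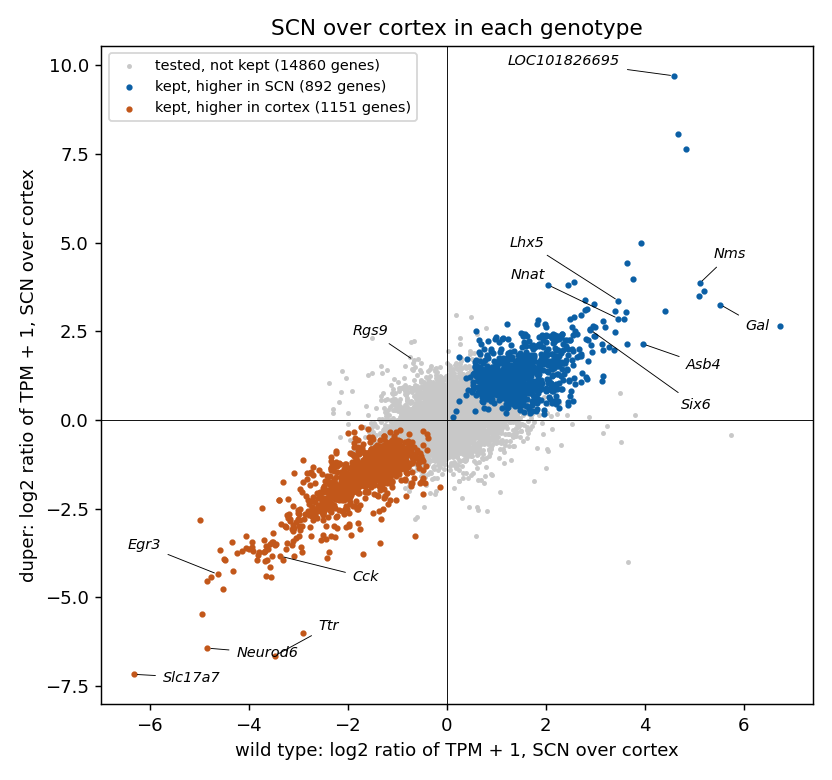
Each point is a tested gene, with the log2 ratio of TPM + 1 between SCN and cortex in wild type on the horizontal axis and in *duper* on the vertical axis. The 892 kept SCN genes (blue) lie in the upper right and the 1151 kept cortex genes (orange) in the lower left, with *Slc17a7* at one end and *LOC101826695* at the other. Their placement follows from the rule for keeping, which required the same direction in both genotypes. *Rgs9* is among the genes whose sign differed between the genotypes.

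Of the 633 kept SCN genes with at least 5 TPM in both SCN libraries, the 20 with the largest ratio in the less different genotype included *Nms*, *Gal*, *Pmch*, *Lhx5*, *Cckar*, *Trhr*, *Calcr*, *Th*, *Nnat* and 6 genes without a symbol. Their smaller log2 ratio was 2.79 to 4.83. The reference table used here gives no name for those 6 genes, and none was assumed.

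Among those 6, 3 genes whose nearest named neighbours in the annotation were *Mrps26* and *Ubox5* were the top 3. *LOC101826695* was at 6217 TPM in wild-type SCN, 5601 in *duper* SCN, 257 in wild-type cortex and 5.74 in *duper* cortex. *LOC121140522* was at 2688, 3003, 104 and 10.3 TPM in the same order, and *LOC121140244* at 2941, 2752, 103 and 12.7 TPM. The SCN libraries were close to each other and above both cortex libraries, whereas the wild-type cortex library was far above the *duper* one in all 3. The fitted log2 fold changes were 6.05 ± 0.60, 5.89 ± 0.41 and 5.88 ± 0.35. All 3 calls were lost in edgeR with robust estimation, where the adjusted p was 0.31, 0.22 and 0.19. In the fit of 3 brain libraries without wild-type cortex the values were larger, at 9.99, 8.10 and 7.79.

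*Nms*, which encodes neuromedin S, a peptide of many SCN neurons, was at 33.5 TPM in wild-type SCN and 13.4 in *duper* SCN and had no count in either cortex library. It had 103 counts over both SCN libraries, most of them from the deeper wild-type one, and 0 over both cortex libraries. Set against a floor of 3 counts over the group, its RNA was at least 14.1-fold higher in SCN. DESeq2 gave it a log2 fold change of 6.33 but no adjusted p, so it could not be called there. In the fit of all 6 libraries the call of *Nms* was lost. *Gal*, which encodes galanin, was at 101 and 95.3 TPM in wild-type and *duper* SCN and at 1.22 and 9.09 TPM in wild-type and *duper* cortex, a log2 fold change of 4.14 ± 0.40. *Scg2*, the secretogranin precursor stored in dense-core granules, was at 748 and 827 TPM in SCN against 221 and 207 TPM in cortex (1.88 ± 0.10). In these 3 genes both SCN libraries were above both cortex libraries. The tissues were separated, in either direction, in 65.0% of all genes tested.

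Of 7 tested genes of the SCN peptide list, 3 were called higher in SCN and 1 higher in cortex, with a median log2 fold change of 0.71 against 0.02 over all genes tested. The same test called 5.28% of all genes tested higher in SCN and 6.82% higher in cortex. Those shares stand beside this and every later list count. The gene on the cortex side was *Cck*, the cholecystokinin precursor, at 71.3 and 41.3 TPM in wild-type and *duper* SCN and 741 and 603 TPM in cortex (-3.54 ± 0.15). *Sst*, the somatostatin precursor, had 197 and 273 TPM in SCN against 506 and 414 TPM in cortex and missed the fold threshold at -0.99 ± 0.15. *Penk*, the enkephalin precursor, had 112 and 148 TPM in SCN against 203 and 64.9 TPM in cortex, so that the tissues overlapped (0.10 ± 0.31). *Prok2*, which encodes a peptide released by SCN neurons, was at 0.24 to 0.56 TPM in all 4 libraries and was not tested. *Avp*, *Vip* and *Grp*, the classical SCN peptide genes, are not listed under those symbols. Whether any gene without a symbol stands for 1 of them was not determined, so no level is given under those names.

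The receptors through which SCN cells are coupled or receive input gave 6 of 15 tested members called higher in SCN and 1 higher in cortex, with a median log2 fold change of 0.73. *Vipr2*, the receptor for vasoactive intestinal peptide on SCN neurons, was at 12.5 and 6.32 TPM in wild-type and *duper* SCN and 0.467 and 0.186 TPM in cortex (4.88 ± 0.38). *Grpr*, the receptor for gastrin-releasing peptide, was at 4.6 and 6.51 TPM in SCN against 0.270 and 1.34 TPM in cortex (2.81 ± 0.51). *Htr7*, a serotonin receptor, was at 12.1 and 14.4 TPM in SCN against 4.87 and 5.39 TPM in cortex (1.44 ± 0.23), and lost its call in the fit of all 6 libraries at an adjusted p of 0.10 in edgeR. Both tissues were thus separated in all 3 receptors, as they were in 65.0% of all genes tested.

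Smaller differences were found for *Adcyap1r1*, the PACAP receptor, with 156 and 175 TPM in SCN against 81.7 and 77.3 TPM in cortex (1.06 ± 0.10). In the fit of 3 brain libraries without *duper* SCN it fell below the fold threshold (0.97). *Rgs16*, a regulator of G-protein signalling with circadian expression in the SCN, had 24.8 and 23.2 TPM in SCN against 11.1 and 9.93 TPM in cortex (1.20 ± 0.20). *Avpr1a*, a vasopressin receptor, was called at 1.13 ± 0.39 but lost its call in 4 of the other fits of all brain libraries and in 3 of the 4 fits of 3 brain libraries. *Npy1r*, a receptor for neuropeptide Y, was the member on the cortex side, with 8.81 and 10.1 TPM in SCN against 22.7 and 23.4 TPM in cortex (-1.26 ± 0.18). *Prokr2*, the prokineticin receptor, had 8.42 TPM in wild-type SCN but 1.37 TPM in *duper* SCN, against 5.46 and 3.07 TPM in cortex, and was not called.

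Transcription factors that specify or maintain the SCN were higher in SCN in 7 of 11 tested cases, with none higher in cortex and a median log2 fold change of 2.08. *Lhx1*, a LIM-homeodomain factor needed for the coupling of SCN neurons, was at 7.78 and 4.94 TPM in wild-type and *duper* SCN and 0.171 and 0.385 TPM in cortex (4.24 ± 0.53). *Six6*, a homeobox factor without which the mouse SCN does not form, was at 8.79 and 6.0 TPM in SCN and had 2 counts over both cortex libraries, a ratio of 33.8 with a 95% counting interval of 9.22 to 282. *Six3*, a homeobox factor of the same family, was at 34.2 and 25.1 TPM in SCN against 7.72 and 5.96 TPM in cortex (2.12 ± 0.19). These 3 factors were higher in the wild-type than in the *duper* SCN library. Both SCN libraries were above either cortex library, and 65.0% of all genes tested were separated by tissue.

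*Zfhx3*, a zinc finger homeobox factor whose mutation changes circadian period in mice, was at 16.9 and 17.6 TPM in SCN against 3.38 and 4.86 TPM in cortex (2.08 ± 0.13). *Vax1*, a homeobox factor of the ventral forebrain, was at 11.7 and 12 TPM in SCN against 2.54 and 1.98 TPM in cortex (2.41 ± 0.26). *Fezf1* (3.31 ± 0.47) and *Id4*, an inhibitor of basic helix-loop-helix factors (1.24 ± 0.11), were the other 2 members called. The ROR genes of the list did not follow: *Rorb* was at 17.7 TPM in both SCN libraries and 28.6 and 26.8 TPM in cortex (-0.64 ± 0.10), and *Rora* at -0.64 ± 0.10, both short of the fold threshold.

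**Figure D2:**
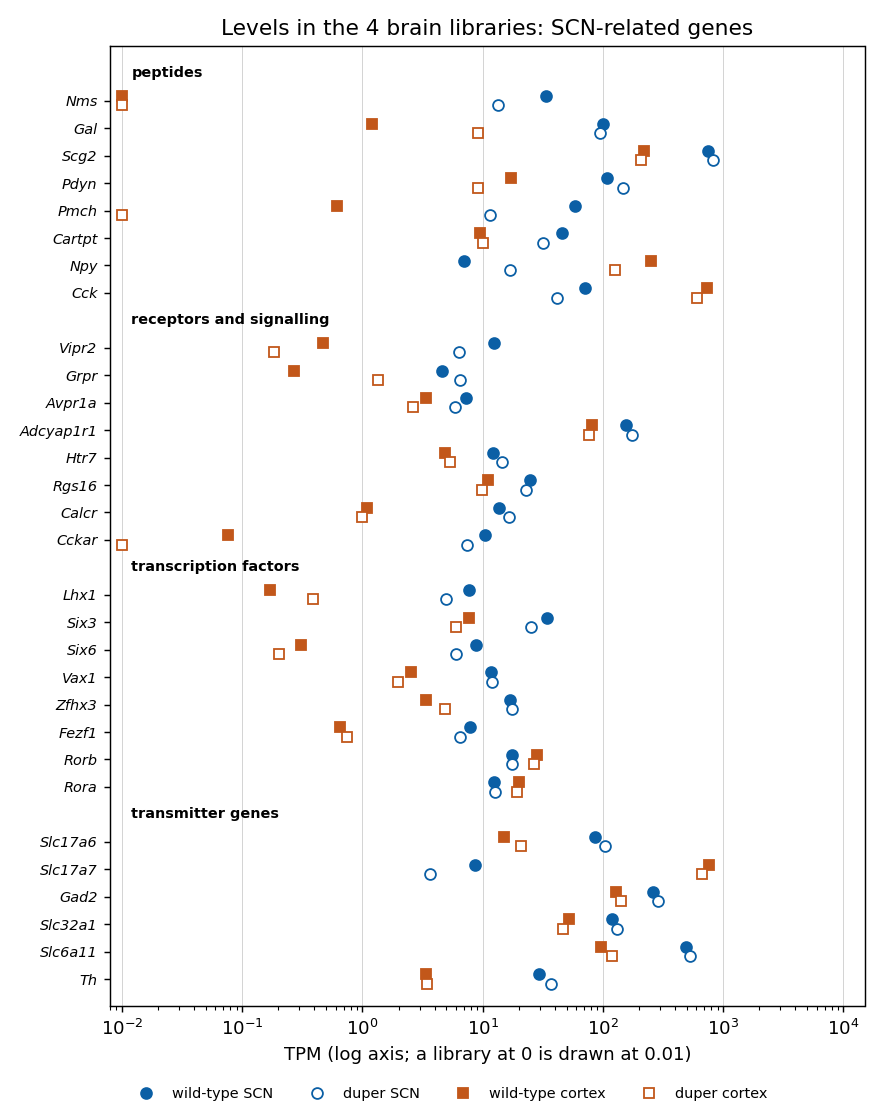
The level of each gene in TPM (log axis, a library at 0 drawn at 0.01) is shown for wild-type SCN and *duper* SCN (filled and open circles) and for wild-type cortex and *duper* cortex (filled and open squares). Circles lie to the right of squares for the peptides down to *Cartpt*, for all receptors shown and for the factors down to *Fezf1*, and to the left for *Npy*, *Cck*, *Rorb*, *Rora* and *Slc17a7*.

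Patterning factors of the hypothalamus and ventral forebrain were called higher in SCN in 14 of 20 tested cases and higher in cortex in none, with a median log2 fold change of 2.20. *Lhx5*, a LIM-homeodomain factor of the developing hypothalamus, was at 14 and 16.5 TPM in wild-type and *duper* SCN and 0.354 and 0.702 TPM in cortex (4.78 ± 0.42). *Sim1*, a marker of paraventricular neurons, was at 7.95 and 6.34 TPM in SCN against 0.585 and 0.543 TPM in cortex (3.64 ± 0.42). *Hmx3* had a log2 fold change of 5.07 ± 0.54, *Foxb1* of 2.81 ± 0.42, *Isl1* of 2.94 ± 0.34 and *Nr2f2* of 1.95 ± 0.14. Several of these factors mark hypothalamic cells outside the SCN. *Nkx2-1*, a factor of the ventral hypothalamus, was at 3.87 and 5.76 TPM in SCN with 3 counts over both cortex libraries, a ratio of 19.8 with a 95% counting interval of 6.65 to 97.2. *Dlx1*, a factor of GABAergic lineages, was at 50.1 and 47.3 TPM in SCN against 17.7 and 20.1 TPM in cortex (1.41 ± 0.15). *Lhx8*, a marker of basal forebrain cholinergic cells, differed between both SCN libraries at 5.16 and 12.9 TPM, with 1.05 and 2.19 TPM in cortex (2.45 ± 0.42).

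Peptides of neighbouring hypothalamic nuclei were also present in the SCN libraries, with 5 of 9 tested members called higher in SCN and 1 higher in cortex (median log2 fold change 1.73). *Pdyn*, the dynorphin precursor, was at 108 and 148 TPM in wild-type and *duper* SCN and 17.2 and 9.11 TPM in cortex (3.32 ± 0.22). *Pmch*, which encodes melanin-concentrating hormone of the lateral hypothalamus, was at 58.2 TPM in wild-type SCN and 11.4 in *duper* SCN and had 1 count over both cortex libraries. The ratio over summed counts was 202, with a 95% counting interval of 36.1 to 8001, and rests mostly on wild-type SCN. *Cartpt* (1.95 ± 0.33), *Nts*, the neurotensin precursor (1.73 ± 0.23), and *Pomc*, the precursor of melanocortins made in the arcuate nucleus (2.97 ± 0.63), were called as well. The SCN libraries thus held RNA of genes known from the lateral and arcuate hypothalamus.

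*Pomc* was at 6.17 TPM in wild-type SCN and 17.4 in *duper* SCN and lost its call in the fit of all 6 libraries. Its call was also lost in the fits of 3 brain libraries without wild-type cortex (2.09) and without *duper* SCN (1.88). *Kiss1*, which encodes kisspeptin, was at 1.89 and 15.3 TPM, and *Ucn3*, which encodes urocortin 3, at 1.55 and 11 TPM; both had too few counts to be tested. *Npy* was the member on the cortex side, at 6.99 and 17 TPM in SCN against 253 and 125 TPM in cortex (-4.25 ± 0.39). *Cga*, the pituitary glycoprotein hormone subunit, had 82 counts (47.9 TPM) in *duper* SCN, 1 count in wild-type SCN and none in cortex, while *Pitx1*, a defining pituitary factor, was at 0 in all 4 libraries. Of the 7 listed pituitary markers 1 was tested, and it was not called. In bulk tissue, fewer cells of a type and less RNA per cell cannot be told apart, in these and in all other values.

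Receptors for hormones and metabolic signals were higher in SCN in 11 of 20 cases and higher in cortex in 2 (median log2 fold change 1.13), and the fit of all 6 libraries called 6 and 1. *Esr1*, oestrogen receptor alpha, was at 6.79 and 7.25 TPM in SCN against 0.669 and 1.09 TPM in cortex (2.88 ± 0.28). *Thrb*, a thyroid hormone receptor, lay on the cortex side at 6.34 and 6.29 TPM in SCN against 23.9 and 25.2 TPM in cortex (-1.94 ± 0.12). *Calcr*, the calcitonin receptor, was at 13.8 and 16.6 TPM in SCN against 1.09 and 0.995 TPM in cortex (3.88 ± 0.28). *Cckar*, the type A receptor for cholecystokinin, was at 10.4 and 7.45 TPM in SCN with 1 count over both cortex libraries, a ratio of 326 with a 95% counting interval of 58.3 to 12877. The tissues did not overlap in any of these receptors, against 65.0% of all genes tested without overlap.

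The vesicular glutamate transporters differed in opposite directions. *Slc17a7*, which encodes VGLUT1, the vesicular glutamate transporter of cortical projection neurons, was at 767 and 669 TPM in wild-type and *duper* cortex and 8.61 and 3.65 TPM in SCN (-6.77 ± 0.18, adjusted p = 4.1e-11 in edgeR's quasi-likelihood test). *Slc17a6*, which encodes VGLUT2, the transporter of most hypothalamic glutamatergic neurons, went the other way at 14.9 and 21.0 TPM in cortex and 85.5 and 105 TPM in SCN (2.47 ± 0.12). Of the GABAergic genes, *Slc32a1*, the vesicular transporter, was at 119 and 131 TPM in SCN against 52.7 and 47.0 TPM in cortex (1.33 ± 0.11). *Gad2*, a GABA-synthesising enzyme, was at 264 and 290 TPM in SCN against 129 and 141 TPM in cortex (1.04 ± 0.09), close enough to the threshold that its call was lost in 2 of the fits of 3 libraries. *Gad1*, the other such enzyme, was at 202 and 208 TPM in SCN against 193 and 165 TPM in cortex and was not called (0.20 ± 0.10).

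*Slc6a11*, the GABA transporter GAT3 of astrocytes, was at 496 and 532 TPM in SCN against 96.0 and 119 TPM in cortex (2.27 ± 0.10). *Th*, the rate-limiting enzyme of catecholamine synthesis, was at 29.4 and 37.4 TPM in SCN against 3.38 and 3.47 TPM in cortex (3.29 ± 0.25), and *Ddc*, which acts after it, had a log2 fold change of 2.28 ± 0.23. *Chat*, the cholinergic marker enzyme, was at 2.62 TPM in wild-type SCN and 9.40 in *duper* SCN, with 0.652 and 1.08 TPM in cortex (2.71 ± 0.49), and lost its call in the fit of all 6 libraries. Of 15 tested members of the list, 9 were called higher in SCN and 1 higher in cortex, with a median log2 fold change of 1.04.

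Inhibitory receptor subunits were divided, with 5 of 18 called higher in SCN and 6 higher in cortex (median log2 fold change -0.41). On the SCN side were the glycine receptor subunits *Glra1*, at 9.36 and 11.8 TPM in SCN against 0.752 and 0.692 TPM in cortex (3.89 ± 0.30), and *Glra3* (3.0 ± 0.18). The GABA-A subunits *Gabrq* (1.43 ± 0.10), *Gabrg1* (1.23 ± 0.13) and *Gabre* completed that side. In the fits of 3 brain libraries *Gabrg1* fell below the fold threshold without wild-type cortex (0.938) and without *duper* SCN (0.9998). On the cortex side, *Gabrd*, the delta subunit of extrasynaptic receptors, was at 104 and 94.4 TPM in cortex and 11.7 and 12 TPM in SCN (-3.08 ± 0.15). *Gabra4*, *Gabra5* and *Gabrb2* were also called on that side. With library totals in place of TMM, the count on the cortex side was 2.

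Glutamate receptor subunits were called higher in SCN in 2 of 22 cases and higher in cortex in 5 (median log2 fold change -0.71). The shares over all genes tested were 5.28% and 6.82%. *Grin2a*, an NMDA receptor subunit of mature forebrain synapses, was at 52.2 and 50.6 TPM in cortex and 6.25 and 6.51 TPM in SCN (-3.01 ± 0.10). *Grin2d*, another NMDA receptor subunit, was at 14.6 and 15.4 TPM in SCN against 4.67 and 5.93 TPM in cortex (1.51 ± 0.18). *Gria3*, an AMPA receptor subunit, had -2.14 ± 0.09, and *Grik1*, a kainate receptor subunit, 1.33 ± 0.13.

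Of 40 voltage-gated channels, 17 were called higher in cortex and 5 higher in SCN (median log2 fold change -0.81), and the fit of all 6 libraries called 17 and 2. *Kcnv1*, a modifying potassium channel subunit, was at 102 and 99.4 TPM in cortex and 2.60 and 3.32 TPM in SCN (-5.17 ± 0.15). *Scn4b*, a sodium channel beta subunit, was at 33.4 TPM in wild-type cortex and 13.7 in *duper* cortex, against 2.27 and 2.05 TPM in SCN (-3.48 ± 0.24). *Scn9a*, a sodium channel alpha subunit better known from sensory neurons, was higher in SCN at 6.88 and 6.97 TPM against 0.553 and 1.02 TPM in cortex (3.13 ± 0.24). *Scn7a*, *Hcn3* and *Hcn4* were also called on that side.

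Genes of peptide processing and secretory granules showed no common direction, with 5 positive and 8 negative log2 fold changes and a median of -0.08. Of 13 tested, 1 was called higher in SCN and 2 higher in cortex. Against 5.28% and 6.82% of all genes tested, such counts say little about the list. *Pcsk2*, a prohormone convertase, was among those higher in cortex, at 264 and 271 TPM in cortex and 69.8 and 72.3 TPM in SCN (-1.91 ± 0.09). Imprinted genes, expressed from 1 parental allele and many of them abundant in the hypothalamus, were higher in SCN in 11 of 18 cases and higher in cortex in none (median log2 fold change 1.39). *Nnat*, neuronatin, was at 1784 and 1536 TPM in SCN against 160 and 212 TPM in cortex (3.17 ± 0.13). *Magel2* was at 71.5 and 71.2 TPM in SCN against 8.18 and 13.1 TPM in cortex (2.76 ± 0.15), and *Ndn*, of the same locus in other mammals, had 1.73 ± 0.09. *Peg3* was called at 1.01 ± 0.09, just past the threshold, and lost its call in the fit of all 6 libraries (adjusted p = 0.14 in edgeR) and in 2 of the 4 fits of 3 brain libraries. *LOC101834284*, for which the imprinted *Gnas* is the next named gene in the annotation, was at 94.2 and 97.3 TPM in SCN against 1.77 and 7.66 TPM in cortex. Whether it is imprinted was not determined.

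**Figure D3:**
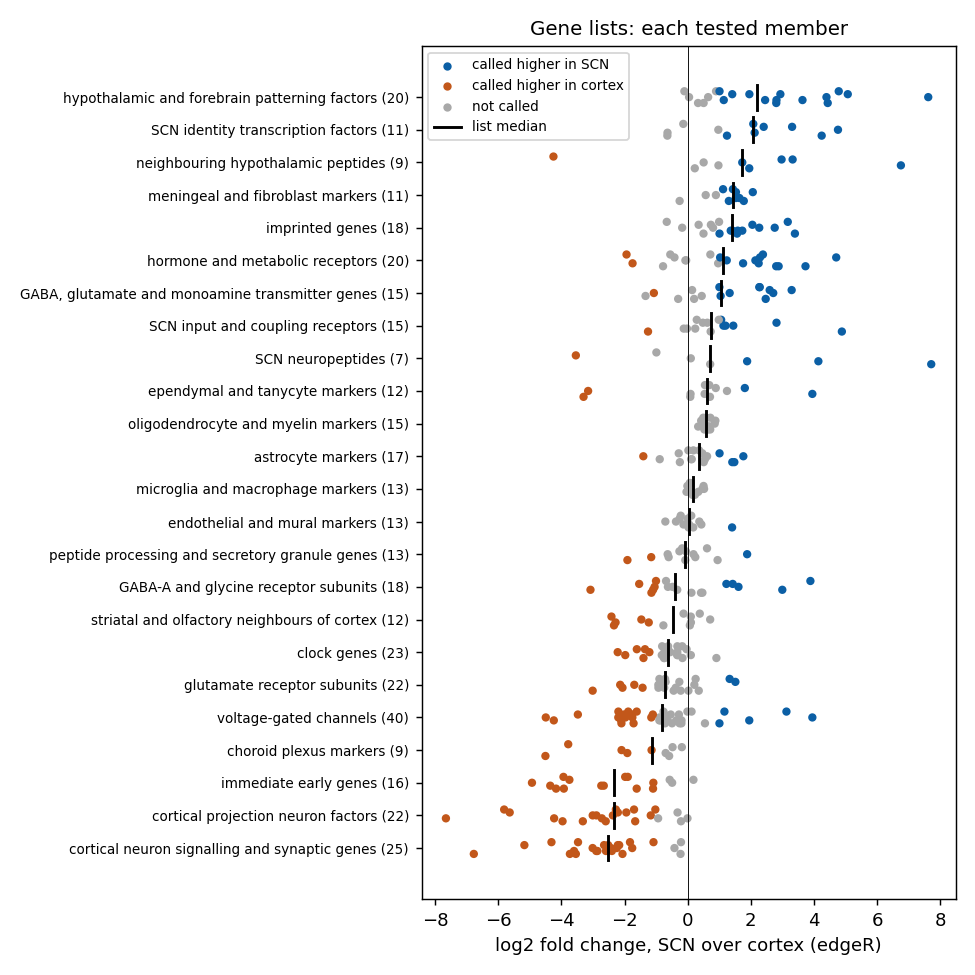
Each point is 1 tested member of a gene list, with its edgeR log2 fold change of SCN over cortex on the horizontal axis, coloured by its call, and the black bar is the list median. The patterning list (median 2.20) and the SCN factor list (2.08) stand at the top and the cortical signalling list (-2.52) at the bottom, and points beyond about 7 on either side belong to genes with at most 2 counts in the lower tissue, whose fitted values depend on the prior count.

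Cortical genes were lower in SCN with few exceptions. Of 22 factors of cortical projection neurons, 18 were called higher in cortex, none was called higher in SCN, and the median log2 fold change was -2.32. *Tbr1*, a factor of deep-layer neurons, was at 86.7 and 86.8 TPM in wild-type and *duper* cortex and 7.66 and 10.6 TPM in SCN (-3.32 ± 0.14). *Mef2c*, an activity-responsive factor, was at 268 and 287 TPM in cortex and 17.8 and 17.5 TPM in SCN (-3.96 ± 0.10). The cortex libraries were close to each other in both genes, and so were the SCN libraries.

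The NeuroD factors of glutamatergic neurons were lower in SCN. *Neurod6* was at 91.9 and 110 TPM in cortex and 2.26 and 0.284 TPM in SCN (-5.81 ± 0.29), and *Neurod2* at 47.8 and 33.8 TPM in cortex and 1.13 and 0.275 TPM in SCN (-5.64 ± 0.25). *Emx1*, a homeobox factor of the dorsal forebrain, was at 24.3 and 14.2 TPM in cortex and had 2 counts over both SCN libraries, a ratio of 189 with a 95% counting interval of 51.4 to 1574. *Prr32* had 87 counts over both cortex libraries and none over both SCN libraries, and was at least 70.7-fold lower in SCN.

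Of 25 signalling and synaptic genes of cortical neurons, 22 were called higher in cortex and none higher in SCN (median log2 fold change -2.52). *Nrgn*, neurogranin, a postsynaptic calmodulin-binding protein, was at 2820 and 2324 TPM in cortex and 312 and 322 TPM in SCN (-3.01 ± 0.10). *Camk2a*, a subunit of the calcium-dependent kinase of synaptic plasticity, was at 1335 and 1146 TPM in cortex and 170 and 163 TPM in SCN (-2.90 ± 0.09). *Pvalb*, parvalbumin, which marks fast-spiking interneurons, was at 194 and 243 TPM in cortex and 18.8 and 15 TPM in SCN (-3.60 ± 0.21).

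Among the 20 cortex genes with the largest ratio in the less different genotype (smaller log2 ratio 3.66 to 6.32), *Slc30a3*, which fills synaptic vesicles with zinc, was at 172 and 140 TPM in cortex and 4.64 and 2.19 TPM in SCN (-5.41 ± 0.17). *Vipr1*, the other receptor for vasoactive intestinal peptide, was at 29.0 and 26.1 TPM in cortex and 0.510 and 0.407 TPM in SCN (-5.86 ± 0.21). The VIP receptor genes were thus on opposite sides, *Vipr2* in SCN and *Vipr1* in cortex, in both genotypes.

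Immediate early genes, which neurons transcribe within minutes of stimulation, were at lower levels in SCN at CT15, with 13 of 16 called higher in cortex and none called higher in SCN (median log2 fold change -2.32). *Egr1* was at 162 and 157 TPM in wild-type and *duper* cortex and 7.66 and 10.9 TPM in SCN (-4.17 ± 0.14), and *Egr3* at 79.4 and 79.7 TPM in cortex and 2.27 and 2.96 TPM in SCN (-4.93 ± 0.15). *Nr4a1* was at 97.7 and 120 TPM in cortex and 6.14 and 8.22 TPM in SCN (-3.92 ± 0.13). *Arc*, a synaptic effector gene, was at 118 and 77.1 TPM in cortex and 6.81 and 6.13 TPM in SCN (-3.93 ± 0.14). *Fos*, the gene most used to mark light-activated SCN cells, differed less, at 22.7 and 21.7 TPM in cortex and 8.93 and 12.2 TPM in SCN (-1.10 ± 0.22), and its call was lost with library totals. *Npas4* was at 3.97 and 4.22 TPM in SCN against 5.45 and 6.19 TPM in cortex and was not called (-0.49 ± 0.14).

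Clock genes, whose products form the transcriptional feedback loop of circadian rhythms, were called higher in cortex in 6 of 23 cases and higher in SCN in none (median log2 fold change -0.62). For all genes tested these shares were 6.82% and 5.28%. *Per1*, a repressor of the loop, was at 23.9 and 26.9 TPM in wild-type and *duper* SCN and 62.2 and 67.6 TPM in cortex (-1.35 ± 0.10). *Npas2*, a partner of BMAL1 in the forebrain, was at 5.46 and 5.69 TPM in SCN against 29.4 and 25.0 TPM in cortex (-2.22 ± 0.17). *Hlf*, a PAR-domain output factor, was at 58.2 and 56.2 TPM in SCN against 162 and 191 TPM in cortex (-1.61 ± 0.10). *Bhlhe40* (-1.40 ± 0.11), *Ciart* (-1.21 ± 0.27) and *Timeless* (-1.98 ± 0.17) were also called. *Ciart* and *Timeless* lost their calls in the fit of all 6 libraries. The call of *Ciart* was also lost in the fits of 3 brain libraries without wild-type SCN (-0.99) and without *duper* cortex (-1.07). These are levels at a single time point, and the tissues' phases were not measured.

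*Per2* was at 24 and 37.9 TPM in SCN against 47.9 and 58.6 TPM in cortex and did not pass the fold threshold (-0.81 ± 0.11), nor did *Dbp* (-0.82 ± 0.11) or *Arntl*, which encodes BMAL1 (-0.75 ± 0.15). *Per3* was at 29.4 and 30.6 TPM in SCN against 33.8 and 33.7 TPM in cortex (-0.17 ± 0.10). *Cry1*, the gene mutated in *duper*, was at 22.9 TPM in wild-type SCN and 33.3 in wild-type cortex, and at 8.14 TPM in *duper* SCN and 8.56 in *duper* cortex. It was lower in both *duper* libraries than in both wild-type ones, and the tissues differed by a log2 fold change of -0.33 ± 0.20, which was not called.

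**Figure D4:**
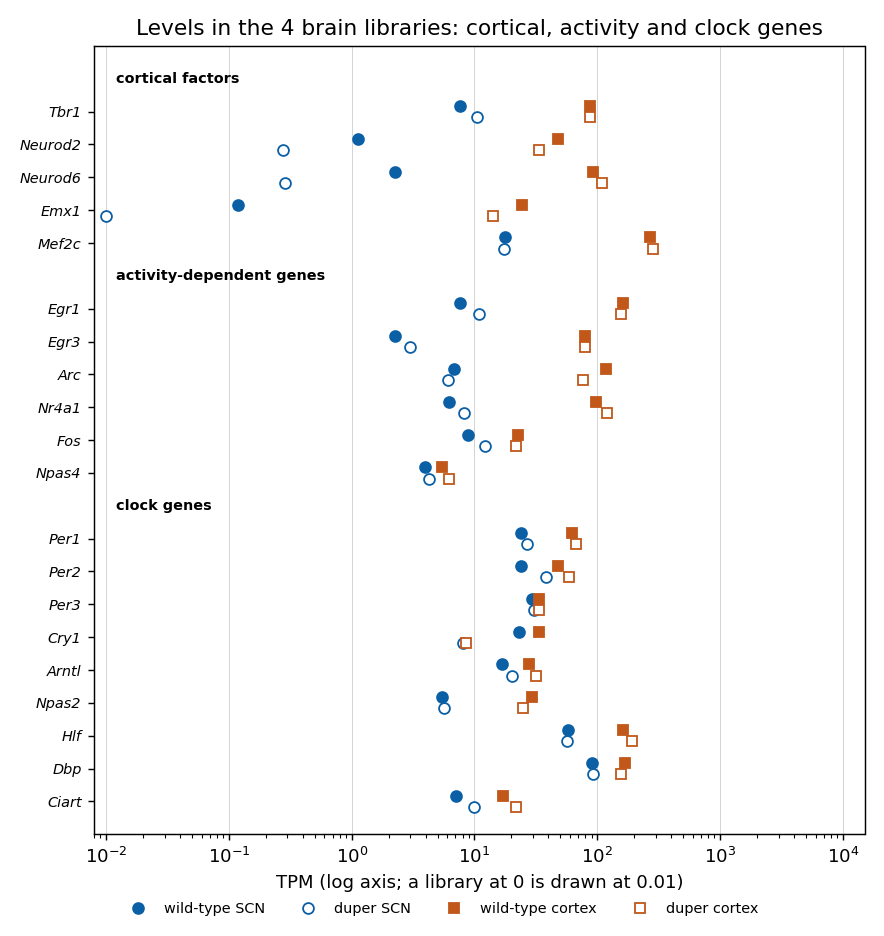
The level of each gene in TPM (log axis, a library at 0 drawn at 0.01) is shown for SCN (circles) and cortex (squares) of wild type (filled) and *duper* (open). Circles lie to the left of squares for the cortical factors and the activity-dependent genes, as for *Egr1* at 7.66 against 162 TPM in wild type. The gap is smaller for *Fos*, *Npas4* and the clock genes. For *Cry1* both open symbols lie to the left of both filled ones.

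Calls in the lists of oligodendrocyte, microglia and vessel markers stand against 12.1% of all genes tested called in either direction. Lists of 13 or 15 genes are too short for none or 1 called to set them apart from that share. None of 15 oligodendrocyte and myelin markers was called, although all had a positive log2 fold change, 0.33 to 0.88, and 13 of them had an adjusted p under 0.05 in edgeR. *Mag*, a myelin glycoprotein gene, had a log2 fold change of 0.68 ± 0.10. The summed level of the oligodendrocyte list was 5008 and 4167 TPM in wild-type and *duper* SCN and 2582 and 3386 TPM in cortex. None of 13 microglia and macrophage markers was called (median 0.16), and 1 of 13 endothelial and mural markers, *Acta2*, was called higher in SCN (median 0.03).

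Of 17 astrocyte markers, 4 were called higher in SCN and 1 higher in cortex (median 0.36), against 5.28% and 6.82% of all genes tested. *Aqp4*, the water channel of astrocyte endfeet, was at 229 and 220 TPM in SCN against 75.7 and 96.0 TPM in cortex (1.41 ± 0.11). *Itih3* (1.76 ± 0.10) and *Agt*, angiotensinogen (1.01 ± 0.09), were higher in SCN as well. In the fits of 3 brain libraries *Agt* fell below the fold threshold without wild-type cortex (0.96) and without *duper* SCN (0.99). *Slc1a2*, the main astrocytic glutamate transporter, was on the cortex side at 815 and 868 TPM in cortex and 287 and 348 TPM in SCN (-1.41 ± 0.09). The summed level of the list was alike in the tissues, at 4760 and 5212 TPM in SCN against 4785 and 5230 TPM in cortex.

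Markers of neighbouring tissue differed between libraries of 1 tissue, and their part in the results was not tested. Of 12 genes of striatum and other neighbours of cortex, 5 were called higher in cortex, *Adora2a* among them, and the summed level was 970 TPM in wild-type cortex and 492 in *duper* cortex, against 429 and 463 TPM in SCN. *Ppp1r1b*, which encodes DARPP-32 of striatal neurons, was at 227 and 104 TPM in wild-type and *duper* cortex and 42.1 and 19.7 TPM in SCN (-2.41 ± 0.12). *Drd1* was at 22.4 and 5.74 TPM in cortex and 10.4 and 5.17 TPM in SCN. The count on the cortex side was 3 in DESeq2 and in the fit of all 6 libraries and 2 with robust estimation. Without wild-type cortex, the fit of all other libraries called none of the 12 in either direction, and the fit of the 3 other brain libraries called 3 higher in SCN and 3 higher in cortex.

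Choroid plexus markers were called higher in cortex in 5 of 9 cases (median -1.14), and their summed level was 1909 and 2574 TPM in wild-type and *duper* cortex and 216 and 56.4 TPM in SCN. *Ttr*, transthyretin, made most of it, with 1837 and 2505 TPM in cortex and 165 and 24.1 TPM in SCN (-4.51 ± 0.42), and its call was lost with robust estimation at an adjusted p of 0.29 in edgeR. The count of the list was 2 with robust estimation and in the fit of all 6 libraries, 3 in DESeq2, in limma and with library totals, and 3 to 6 in the fits of 3 brain libraries, where the median was -2.16 to -0.61. Meningeal and fibroblast markers were called higher in SCN in 8 of 11 cases (median 1.43), with 488 TPM summed in wild-type SCN, 198 in *duper* SCN, 168 in wild-type cortex and 139 in *duper* cortex. *Dcn*, decorin, was at 68.4 and 21.2 TPM in SCN against 18.1 and 14.1 TPM in cortex. The fit of all 6 libraries called 3 of the 11 and not *Dcn* (adjusted p = 0.13 in edgeR). Without wild-type SCN that fit called 1, with *Dcn* at 0.25 against 1.30 in the 4 brain libraries, and the fit of the 3 other brain libraries called 3, with *Dcn* at 0.39. *Aldh1a2*, which makes retinoic acid in the meninges, was at 48.7 and 21.5 TPM in SCN against 9.40 and 6.59 TPM in cortex (2.06 ± 0.20).

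Ependymal and tanycyte markers gave 2 of 12 called on each side (median 0.62), with 1 on the SCN side in DESeq2, with robust estimation and in the fit of all 6 libraries. Of all genes tested, 5.28% were called on the SCN side and 6.82% on the cortex side. *Vim*, vimentin, was at 333 TPM in wild-type SCN, 147 in *duper* SCN, and 54.2 and 72.3 TPM in cortex (1.81 ± 0.25), and its call was lost in DESeq2 and with robust estimation. Wild-type SCN had the highest summed level of the meningeal markers. In the fit of the 3 other brain libraries, 2 of 6 tested SCN peptide genes, 7 of 11 SCN factors and 5 of 15 SCN receptors were called higher in SCN. In the fit of 6 libraries without wild-type SCN these counts were 1 of 6, 4 of 11 and 2 of 15, and over the 4 fits that left out 1 brain library from the 6 the counts ranged from 1 to 2, from 1 to 5 and from 0 to 4.

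**Figure D5:**
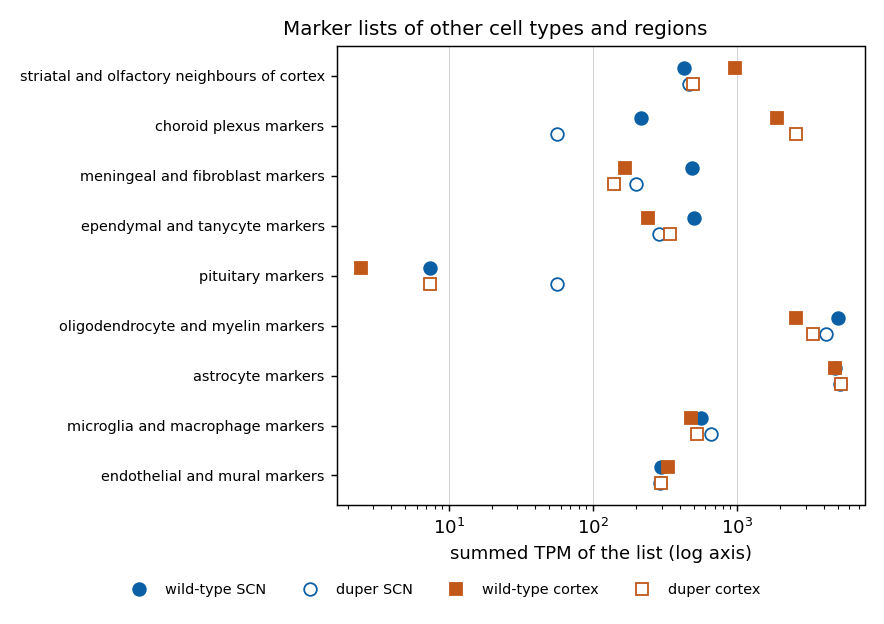
The summed TPM of each marker list (log axis) is shown for SCN (circles) and cortex (squares) of wild type (filled) and *duper* (open). Wild-type cortex stands apart in the striatal list at 970 TPM and wild-type SCN in the meningeal list at 488 TPM. In the pituitary list *duper* SCN stands apart at 56.3 TPM, most of it from *Cga* alone. Astrocyte, microglial and endothelial lists were close in all 4 libraries.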

How the data were processed

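RNA was extracted from cortex and SCN of 4 hamsters per genotype. It was pooled within each tissue and genotype before TruSeq stranded mRNA libraries were made and sequenced. The authors quantified the reads with kallisto (version not given in the sources used here) against the hamster genome and deposited estimated counts and TPM values per gene and per transcript. Depth ranged from 6788827 to 29936106 estimated counts. A value of 0 allows up to 3 counts, and counting intervals cover counting error only. Bounds and ratios for genes with few counts in a tissue used counts summed over both genotypes. In the SCN sum the wild-type library, the deepest, weighs most. The deposited estimated counts of the 4 brain libraries were rounded and normalised by TMM, genes with low counts were removed by edgeR's filterByExpr on tissue, and tissue was tested with genotype as a block by edgeR 4.0.16 (quasi-likelihood F test, Benjamini-Hochberg, R 4.3.3). The labels number no replicates, so that the genotype is the block. DESeq2 1.42.0, limma 3.58.1 on log2(TPM + 1) and log2(TPM + 0.1), other filters and scalings, and fits without single libraries were alternatives. Scripts were tested on simulated data. The members and the 25 gene lists (440 symbols, 416 of them in the table) were chosen with earlier results of these data known. Named were list genes, the 20 kept genes per direction with at least 5 TPM in both libraries of the higher tissue and the largest smaller-of-both-genotypes log2 ratio, and the 10 genes with at least 20 TPM in 1 library and the largest opposite ratios. Some genes of the lists are not reported here. Of 31593 symbols in the deposited tables, 31590 matched the RefSeq gene table. The 2 liver libraries were used only for levels and in the fit of all 6 libraries.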

Additional observations from a re-analysis of the deposited data

Results flagged for a closer look

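For 4 of the genes described, SCN and cortex stood in opposite order in wild type and *duper*, with 95% counting intervals that left out equality in each genotype. With 1 library per genotype and tissue, the difference between the genotypes was not tested. *Rgs9*, a striatal regulator of G-protein signalling, had a log2 ratio of SCN over cortex (TPM + 1) of -0.66 in wild type and 1.68 in *duper*, from 32.2 TPM in wild-type cortex and 6.03 in *duper* cortex against 19.99 and 21.6 TPM in SCN. *Penk* had -0.85 and 1.18, from 203 and 64.9 TPM in wild-type and *duper* cortex. *Drd2*, the D2 dopamine receptor, had -0.59 and 0.92, from 20.6 and 6.07 TPM in cortex and 13.3 and 12.4 TPM in SCN. In these 3 genes the cortex libraries differed more than the SCN libraries. All 3 belong to the striatal list, whose summed level was 970 TPM in wild-type cortex and 492 in *duper* cortex. That sum includes these 3 genes, so it is no separate observation, and the cause was not tested. *LOC121138168*, a small nuclear RNA gene with 20 counts or fewer in each library, had -6.57 in wild type and 4.54 in *duper*, from 0 and 259 TPM in SCN against 94.2 and 10.2 TPM in cortex.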

How the results depend on the processing

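With 4 pooled libraries, 1 residual degree of freedom and 6788827 counts in the shallowest library, genes of low level rest on few counts and the calls on a spread shared across genes. DESeq2 called 564 genes higher in SCN and the fit of all 6 libraries 516, and without a fold threshold there were 2396 on the SCN side and 2943 on the cortex side, as that construction adds genes. Leaving out 1 library at a time in the fit of 6 gave 76 to 538 SCN genes (76 without wild-type cortex, 122 without *duper* cortex, 195 without wild-type SCN, 538 without *duper* SCN). The same fits gave 280 to 816 cortex genes (280, 402, 542 and 816), and they assume that the lone library varies like the other groups. The fits of 3 brain libraries were chosen after seeing the data. Without the replicate block, genotype, 873 genes were called higher in SCN and 1135 higher in cortex, of which 841 and 1119 were also called with it. Library totals in place of TMM moved the median log2 fold change of all genes by 0.17, so that 1190 SCN genes and 894 cortex genes were called, 57.1% on the SCN side against 43.6%. All other alternatives were within 1.5 times of the counts reported.

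Of the genes described, 8 that were not called changed sign, and the cause was not tested. *Penk* was at -0.028 without the replicate block, -0.67 without *duper* cortex and -0.23 without *duper* SCN in the fits of 3 libraries, and at -0.84 to 1.17 in those of 6 without a library. *Prokr2* was at 0.15 with library totals, 0.38 without the block and 0.82 and 1.02 without wild-type cortex and *duper* SCN, with a range of -1.18 to 0.64 without 1 of 6 libraries. *Per3* was at 0.0032 with library totals (-0.36 to 0.0070 without 1 of 6 libraries). *Cry1* was at 1.04 without wild-type cortex and 0.19 without *duper* SCN (-0.56 to 0.015). *Gad1* ranged from -0.12 to 0.50, *Drd1* was at 0.43 without wild-type cortex, *Drd2* at -0.065 and -0.68 without wild-type SCN and *duper* cortex (-0.63 to 1.03), and *Rgs9* at -0.65 without *duper* cortex (-0.71 to 1.86).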

Other observations

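The following genes were chosen after their values were seen. All 4 called *Zic* genes, which encode zinc finger factors of the medial forebrain, were higher in SCN (4 of 5 tested), as *Zic1* at 53.7 and 36.7 TPM in wild-type and *duper* SCN and 8.64 and 20.3 TPM in cortex (1.65 ± 0.29). *Galr1*, a receptor for galanin, was at 11.8 and 17.4 TPM in SCN against 0.735 and 2.13 TPM in cortex (3.37 ± 0.21), and was called with its ligand *Gal*. *Cbln1*, a secreted synaptic organiser, was at 90.1 and 69.6 TPM in SCN against 12.2 and 5.80 TPM in cortex (3.21 ± 0.18). Of 20 tested *Dusp* genes, phosphatases that act on MAP kinases and related proteins, 6 were called higher in cortex and none higher in SCN. The shares of all genes tested were 6.82% and 5.28%. *Dusp6* was at 59.6 and 48.0 TPM in cortex and 20.5 and 16.6 TPM in SCN (-1.53 ± 0.13).

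Transcript proportions were also compared, with no test. Of 4260 genes with more than 1 transcript and at least 200 estimated counts in each brain library, 334 had a transcript whose share of the gene's TPM differed by over 20 percentage points between SCN and cortex in the same direction in both genotypes. For *Camk2a* 1 transcript made 55.9% and 70.0% of the TPM in wild-type and *duper* SCN but 6.81% and 6.53% in cortex. For *Begain*, a postsynaptic density gene, 1 transcript made 7.96% and 7.56% in SCN and 90.3% and 81.0% in cortex. For *Jakmip1*, 1 transcript made 58.9% and 58.3% in SCN and 17.2% and 18.4% in cortex. These shares are kallisto estimates among transcripts that share sequence.

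The 10 genes with the largest opposite ratios in both genotypes were 8 small nucleolar and 2 small nuclear RNA genes, at 0 in at least 1 library and with at most 25 counts in any. None of them passed the count filter, so none was tested.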
